A study of Mus musculus with 33 samples.

Results

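The genes described here are 10 genes that macrophages express in tumours, picked by name from the count table: Adgre1, Csf1r, Cd68, Mrc1, Cd163, Arg1, C1qa, C1qb, C1qc and Trem2. All 10 were found among the 54532 genes of the table. RNA was sequenced from mouse mammary tumours, all labelled with the FVB genotype (an inbred mouse strain) and, per a growth protocol shared by every sample, transplanted. Titles ending in _7 gave 3 tumours that had received vehicle (VEH_7) and 4 that had received RP-6306 (M20_7), an inhibitor of the kinase PKMYT1, which places an inhibitory phosphate on CDK1. Titles without that suffix gave 4 vehicle tumours (VEH) and 11 tumours given RP-6306 (MYT). No treatment was given to the 5 tumours titled SPON and the 5 titled WT. Of the 33 samples, 1 has labels that contradict each other and was kept apart. The dose was 20 mg/kg. The treatment protocol reads per day and the treatment field carries a twice-daily abbreviation. Cyclin E transgenic and PyMT tumours are named in the design text, but no label ties a title to either. Nor do the labels say how long each tumour was treated, what the suffix means, how old the mice were, or whether the samples of a group came from separate mice.

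Macrophages arise from blood monocytes and from precursors seeded before birth, and they depend on signalling through the CSF1 receptor, whose ligands are CSF1 and IL-34. In tumours they clear dead cells and debris, take up lipids, remodel matrix, and can restrain T cells, partly by using up arginine. The 10 genes fall by role into identity genes (Csf1r, Adgre1 and Cd68), scavenger receptors (Mrc1 and Cd163), the C1q chains of complement, the lipid-sensing receptor gene Trem2, and the arginine-degrading enzyme gene Arg1.

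Levels are given as CPM, the counts of a gene relative to the total of its library, scaled with TMM factors over the 32 grouped libraries. Libraries titled _7 held 26517748 to 34637096 counts and the others 13701115 to 20105407, so that every member except Cd163 rested on at least 32 counts in each library. SPON replicates 1 and 5 stood apart: the mitochondrial gene mt-Co1 took 8.44% and 10.9% of their counts, and their TMM factors were 0.769 and 0.698. M20_7 replicate 2 stood apart in lymphocyte markers. Its B and plasma cell markers summed to 94.3 CPM and its T cell markers to 57.5 CPM. The other M20_7 libraries held 2.65 to 7.05 CPM and 18.2 to 20.3 CPM. The label mammary tumour was set against 6 epithelial markers (Epcam, Cdh1, Krt8, Krt18, Krt14 and Krt5). Their summed level was 28.2 to 80.2 CPM in VEH_7 and 46.8 to 70.3 CPM in M20_7, against 601 to 1837 CPM in VEH and 2880 to 9179 CPM in MYT, SPON and WT. None of the 6 was absent from any group. Macrophage markers were detected in every group.

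In the set without the suffix, MYT tumours held less RNA of 9 of the 10 genes than VEH tumours and more of Arg1, and Mrc1 fell furthest. Of the 16021 genes tested there, 29.0% were lower and 30.5% higher. In the set titled _7, none of the 10 passed the test between RP-6306 and vehicle, and by edgeR 0% of the 16699 genes tested did. In bulk tissue, fewer macrophages and less RNA per macrophage cannot be told apart, and this holds for every level given here. All MYT tumours had received RP-6306 and no VEH tumour had, and the sources used here do not say whether both groups grew from the same tumour, so that drug and tumour cannot be told apart.

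**Figure D1:**
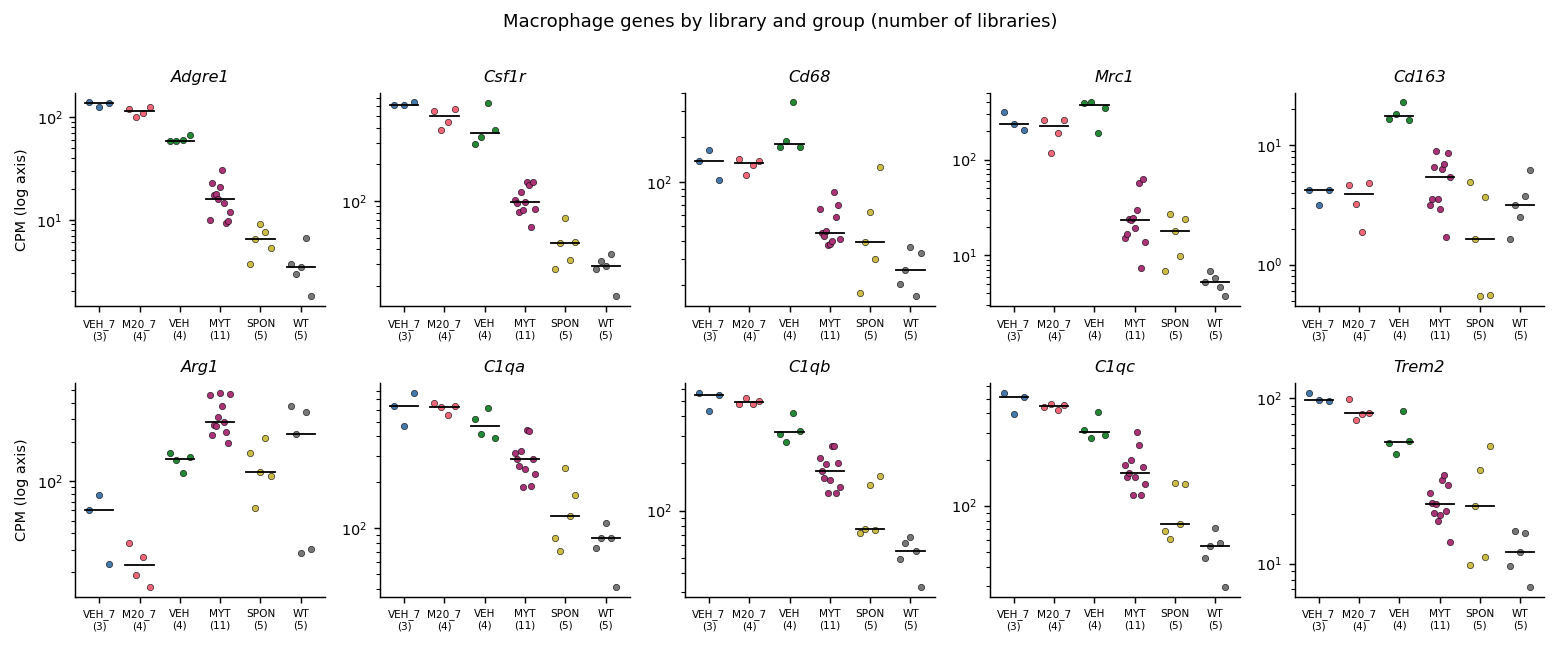
CPM (log axis, its range set for each panel) of the 10 genes in each of the 32 grouped libraries; each point is 1 library, each bar a group median, and the number of libraries stands under each group. Csf1r runs from 646 CPM in a VEH_7 library to 16.4 CPM in a WT library, and Arg1 alone is higher in every MYT library than in every VEH library.

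Csf1r encodes the receptor tyrosine kinase that keeps macrophages alive. It lies on chromosome 18 from 61100598 to 61132149 on the plus strand (GRCm38, GENCODE M21) and shares bases with Hmgxb3 on the other strand, and the sources used here do not say whether counting used the strand. Csf1r stood at 619.6, 620.0 and 646 CPM in VEH_7 and at 554, 381, 449 and 567.8 CPM in M20_7. These ranges did not overlap, which was true of 1 of the 10 genes in that pair of groups and of 6.67% of all genes tested. It stood at 295, 336, 637 and 382 CPM in VEH, and from 61.4 through a median of 98.1 to 142 CPM in the 11 MYT libraries. Every MYT library lay below every VEH library, and VEH replicate 3 lay far above the other 3. SPON libraries held 27.45, 44.9, 72.0, 32.45 and 45.8 CPM and WT libraries 27.4, 31.9, 29.2, 36.8 and 16.4 CPM, overlapping each other. The median of the highest group, VEH_7, was 21.2 times that of the lowest, WT. The fitted log2 fold change of MYT against VEH was -1.98 ± 0.20 (SE, edgeR adjusted p = 4.29e-07, n = 11 and 4), and without VEH replicate 3, the highest VEH library, all 10 genes were still called.

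Adgre1 encodes F4/80, the adhesion receptor by which mouse macrophages are commonly stained (chromosome 17, 57358691 to 57483527). It was even within groups: 140.3, 127 and 137 CPM in VEH_7, 120.1, 101.5, 111 and 127 CPM in M20_7, and 59.15, 59.05, 59.7 and 67.05 CPM in VEH. MYT libraries ran from 9.37 through 15.8 to 30.4 CPM, all below VEH, at a log2 fold change of -1.89 ± 0.24 (edgeR adjusted p = 4.01e-06). SPON held 3.65 to 9.12 CPM and WT 1.78 to 6.66 CPM, so that the VEH_7 median was 39.8 times the WT median. VEH_7 and M20_7 overlapped, as did SPON and WT, while M20_7 and VEH, VEH and MYT, and MYT and SPON did not.

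Cd68 encodes a lysosomal membrane glycoprotein of macrophages and other phagocytes (chromosome 11, 69664213 to 69666153). Unlike Csf1r and Adgre1, it had its highest median in VEH, with 173, 189, 345 and 173 CPM, against 138, 164 and 103.5 CPM in VEH_7 and 143, 112, 129.5 and 138 CPM in M20_7. In MYT it ran from 37.7 through 44.9 to 85.6 CPM, below every VEH library (log2 fold change -2.08 ± 0.22, edgeR adjusted p = 5.37e-07). The 5 MYT tumours with title numbers 2639 to 2706 held 37.7 to 46.5 CPM and the 5 numbered 410 to 450 held 44.9 to 85.6 CPM. The labels do not say what these numbers mean. Against the first 5 and the tumour numbered 968 the fall of Cd68 was 2.43 on the log2 scale, and against the second 5 and the same tumour it was 1.84. Adgre1 went the other way, with medians of 18.0 CPM in the first 5 and 9.91 CPM in the second 5 and falls of 1.69 and 2.21 on the log2 scale. All 10 genes were called either way. The SPON library of replicate 5, 1 of the 2 with a high mt-Co1 share, held 126 CPM. The other SPON libraries held 17.7 to 62.2 CPM beside 16.85 to 36.4 CPM in WT.

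Mrc1 encodes the mannose receptor CD206, an endocytic receptor of alternatively activated and tissue-resident macrophages (chromosome 2, 14229392 to 14332057, with the microRNA gene Mir511 inside it). It had the largest change of the 10. The 250 bases before its start are shown because Mrc1 and the C1q genes moved by different amounts. Capitals mark GAGGAA or its reverse complement TTCCTC, the core that the myeloid factor PU.1 binds, searched on both strands (RefSeq, GRCm38.p6, chr2:14229164-14229413, plus strand, 5′ to 3′).
Mrc1: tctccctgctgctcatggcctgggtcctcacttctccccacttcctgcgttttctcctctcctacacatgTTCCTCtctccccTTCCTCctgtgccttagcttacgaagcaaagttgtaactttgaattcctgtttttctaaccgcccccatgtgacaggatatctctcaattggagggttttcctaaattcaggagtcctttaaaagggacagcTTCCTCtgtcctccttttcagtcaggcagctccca

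Promoters of 6 of the 10 genes were in the RefSeq table (Mrc1, Cd163, Cd68, C1qb, C1qc and Trem2, but not Adgre1, Csf1r, Arg1 and C1qa), and 5 of the 6 held the motif, against 23.3% of all 32851 promoter windows of the same length. The window of Mrc1 held 3 matches and that of Cd163 none. A match describes these letters only.

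Mrc1 RNA stood at 318, 238 and 206 CPM in VEH_7, at 257, 117, 188.5 and 263 CPM in M20_7, and at 389, 397, 191 and 351 CPM in VEH. In MYT it ran from 7.45 through 23.5 to 63.5 CPM. No MYT library came near the lowest VEH library, and MYT replicates 8 and 10, with 57.0 and 63.5 CPM, stood above the other 9, which held at most 29.7 CPM. The log2 fold change was -3.63 ± 0.38 (edgeR adjusted p = 5.77e-07), and lay between -3.84 and -3.53 when any 1 library was left out. In the untreated tumours Mrc1 stood at 6.92, 27.05, 17.8, 9.93 and 23.7 CPM in SPON and at 5.29, 6.79, 5.76, 4.64 and 3.73 CPM in WT. Every SPON library lay above every WT library, replicate 1 only narrowly. Mrc1 spanned the widest range of the 10, with a VEH median 69.8 times the WT median.

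Cd163, a haemoglobin scavenger receptor (chromosome 6, 124304656 to 124330527), per kilobase had the lowest median of the 10 in each group. It was higher in VEH than in either group titled _7: it stood at 16.45, 18.3, 22.7 and 16.1 CPM in VEH, against 4.21, 3.12 and 4.20 CPM in VEH_7 and 4.65, 3.19, 1.88 and 4.78 CPM in M20_7. MYT libraries ran from 1.71 through 5.396 to 8.84 CPM, below all VEH libraries (log2 fold change -1.81 ± 0.31, edgeR adjusted p = 8.74e-05). SPON held 0.544 to 4.90 CPM, from as few as 7 counts, and WT 1.66 to 6.18 CPM. The ranges of these 2 groups overlapped.

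C1qa, C1qb and C1qc encode the A, B and C chains of C1q, the molecule that starts the classical complement pathway by binding antibody complexes and dying cells, and which macrophages make themselves. The genes lie side by side on chromosome 4, all on the minus strand: C1qb from 136880129 to 136886187, C1qc from 136889804 to 136893065 and C1qa from 136895917 to 136898803. The windows before the starts of C1qb (chr4:136886201-136886450) and C1qc (chr4:136892915-136893164) are shown because the chains moved together; both are 250 bases of the minus strand from RefSeq on GRCm38.p6, with the same motif in capitals.
C1qb: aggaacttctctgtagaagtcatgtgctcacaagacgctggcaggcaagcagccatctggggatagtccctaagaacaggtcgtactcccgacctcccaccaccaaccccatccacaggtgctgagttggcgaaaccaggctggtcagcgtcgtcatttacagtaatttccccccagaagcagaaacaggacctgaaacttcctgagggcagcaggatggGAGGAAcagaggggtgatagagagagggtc
C1qc: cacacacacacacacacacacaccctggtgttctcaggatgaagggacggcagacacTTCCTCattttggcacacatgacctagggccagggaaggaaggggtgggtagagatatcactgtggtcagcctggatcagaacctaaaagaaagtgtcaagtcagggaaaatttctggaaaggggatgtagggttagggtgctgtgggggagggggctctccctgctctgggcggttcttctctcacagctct

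Each held 1 match, 30 bases before the start in C1qb and 193 bases before it in C1qc. These starts are those of RefSeq, which differ from the GENCODE positions given for the genes: the windows of C1qc and Mrc1 reach into the GENCODE gene. The chains kept a steady ratio to each other. Across the 32 libraries the log2 ratio of C1qa to C1qb lay between -0.10 and 0.78 with a median of 0.54, and that of C1qc to C1qb between -0.34 and 0.22. With each library's deviation from its own group mean on the log2 scale, C1qb and C1qc had a Pearson r of 0.96, C1qa and C1qc 0.95, and C1qa and C1qb 0.91 over 32 libraries. These correlations describe libraries that share preparation and depth within a set.

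C1qa stood at 635, 470 and 771 CPM in VEH_7, at 660.2, 624.8, 552 and 631 CPM in M20_7, and at 523, 418, 614 and 388 CPM in VEH. MYT libraries ran from 187 through 286 to 443 CPM and overlapped VEH. C1qb stood at 563, 431 and 546 CPM in VEH_7, 479, 524, 482 and 499.9 CPM in M20_7, and 308.5, 273, 420.0 and 324 CPM in VEH. Its MYT libraries, at 129 to 257 CPM around a median of 179 CPM, all lay below VEH. C1qc followed C1qb, with 276 to 411 CPM in VEH and 117.5 to 300.4 CPM in MYT, where the ranges overlapped. All 3 chains were lower in MYT by the test: C1qa by a log2 fold change of -0.74 ± 0.21 (edgeR adjusted p = 0.00521), C1qb by -0.84 ± 0.18 (edgeR adjusted p = 0.000626) and C1qc by -0.85 ± 0.20 (edgeR adjusted p = 0.00174). These were the smallest changes among the 10 genes. In the untreated tumours C1qb held 71.4, 76.5, 146, 75.7 and 166 CPM in SPON and 48.8, 62.05, 67.8, 54.9 and 32.6 CPM in WT. These ranges did not overlap, with only a small gap at SPON replicate 1.

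Trem2 encodes a lipid-binding receptor that signals through TYROBP and marks lipid-associated macrophages (chromosome 17, 48346401 to 48354147). It stood at 108, 98.3 and 96.0 CPM in VEH_7, 99.5, 73.7, 80.3 and 81.9 CPM in M20_7, and 54.0, 45.8, 83.9 and 55.5 CPM in VEH. MYT libraries ran from 13.6 through 22.9 to 34.3 CPM, all below VEH (log2 fold change -1.32 ± 0.20, edgeR adjusted p = 2.61e-05). SPON libraries were spread, at 9.87, 22.5, 36.9, 10.97 and 51.8 CPM, and overlapped WT at 9.71, 15.9, 11.8, 15.3 and 7.24 CPM.

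Arg1 encodes arginase 1, which splits arginine into ornithine and urea, is abundant in liver and is induced in alternatively activated and tumour macrophages (chromosome 10, 24915221 to 24927484). Its order of groups was unlike that of the other 9. It was lowest in the set titled _7, with 60.1, 78.2 and 23.2 CPM in VEH_7 and 33.9, 19.0, 26.5 and 15.5 CPM in M20_7. VEH libraries held 164, 146, 117 and 153 CPM, and MYT libraries ran from 198 through 288 to 477 CPM, all above VEH. The log2 fold change was 1.17 ± 0.23 (edgeR adjusted p = 0.000320). SPON held 164, 62.2, 118.5, 216 and 110.1 CPM. WT libraries were spread most, at 380.0, 230.0, 28.2, 340.2 and 30.3 CPM. Neighbouring groups in the order of medians (MYT, WT, VEH, SPON, VEH_7, M20_7) overlapped at each of the 5 steps.

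Markers of other cells that could hold Arg1 were read beside it. The 4 hepatocyte markers summed to at most 0.718 CPM in any library. The summed level of 8 neutrophil markers was 14.4 to 74.5 CPM in VEH and 97.2 to 215 CPM in MYT, with none of the 8 absent, and of the 6 that could be tested 4 were higher and none lower. In WT that sum rested largely on S100a8, whose median was 14.5 CPM beside 21.6 CPM for the sum. S100a9, Csf3r and Cxcr2 had medians of 1.13, 3.92 and 0.501 CPM in WT. In WT replicates 1 to 5 the neutrophil sum was 11.4, 21.6, 34.3, 13.6 and 31.6 CPM. Arg1 stood at 380.0, 230.0, 28.2, 340.2 and 30.3 CPM in the same libraries. In SPON replicates 1 to 5 the neutrophil sum was 80.2, 11.8, 15.2, 39.0 and 9.01 CPM. There Arg1 stood at 164.2, 62.2, 118.5, 216.0 and 110.1 CPM. The summed level of 6 epithelial markers was 601 to 1837 CPM in VEH, 3254 to 8826 CPM in MYT and 2880 to 3681 CPM in WT. The part of these cells in the level of Arg1 was not tested.

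Per kilobase of the principal transcript, which lets genes be set against each other, C1q chains were the most abundant of the 10 in VEH. Their group medians there were 452 CPM per kb for C1qa, 291 for C1qb and 250.2 for C1qc. Cd68 followed at 147 CPM per kb and Arg1 at 101 CPM per kb. Csf1r, Mrc1 and Trem2 stood at 76.4, 68.8 and 50.3 CPM per kb, Adgre1 at 18.4 and Cd163 at 3.94. In MYT the median of Mrc1, at 4.38 CPM per kb, was below that of Adgre1 at 4.88. C1qa stood there at 275 CPM per kb, Arg1 at 195, C1qb at 164 and C1qc at 136. Over all annotated exons in place of the principal transcript, Arg1 stood at 129 CPM per kb in MYT, below C1qb at 164, so that order depends on the length used. The longer length also lowered C1qc, Trem2, Csf1r, Mrc1, Cd163 and, slightly, Cd68, most of all Trem2, whose exons cover 4.95 kb against a transcript of 1.09 kb.

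**Figure D2:**
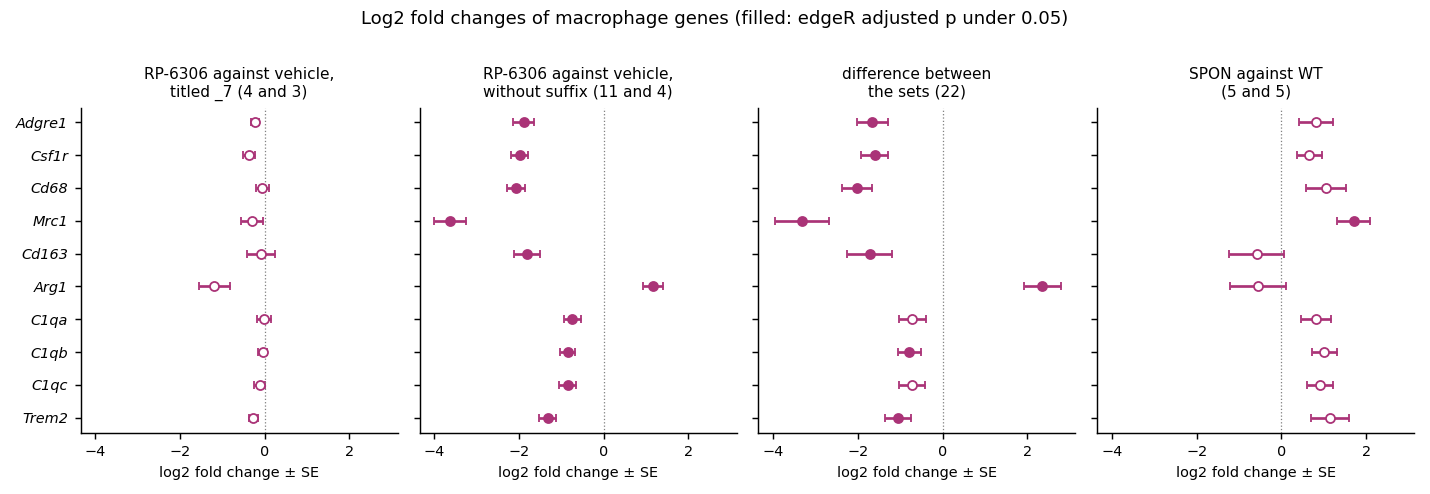
Log2 fold change of the 10 genes with its standard error in the 4 comparisons (edgeR; filled points have an adjusted p under 0.05; numbers in brackets are libraries). In the set without the suffix all 10 points are filled, from -3.63 for Mrc1 to 1.17 for Arg1, and in the set titled _7 none is. Of all genes tested, 59.5% and 0% were called in these sets.

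Within the set without the suffix, all 10 genes were called, 9 lower and 1 higher, where 59.5% of the 16021 genes tested were called, 29.0% of all genes tested being lower and 30.5% higher. The median log2 fold change of the 10 was -1.57, and that of all genes tested was 0.04. With any 1 of the 15 libraries left out, all 10 were still called. The CPM ranges of VEH and MYT were apart for 8 of the 10, all but C1qa and C1qc, and for 35.1% of all genes tested.

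Within the set titled _7, none of the 10 genes was called, and by edgeR 0% of the 16699 genes tested were. Without adjustment 1033 of the 16699 genes tested had an edgeR p under 0.05, Arg1, Csf1r and Trem2 among them. Where no gene differs, a share of about 0.05 falls under that threshold. DESeq2 called 55 genes and none of the 10. The largest difference among the 10 was that of Arg1, at a log2 fold change of -1.18 ± 0.37 (edgeR adjusted p = 0.713), with overlapping ranges. Csf1r differed by -0.37 ± 0.14 (edgeR adjusted p = 0.781), Trem2 by -0.27 ± 0.12 and Adgre1 by -0.23 ± 0.10. The C1q chains differed by -0.12 to -0.02, with standard errors of 0.12 to 0.16. The median over the 10 was -0.17, and over all genes tested it was 0.01. A p over the threshold with 3 and 4 libraries does not show that these genes were alike.

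The difference between the sets in the RP-6306 contrast was tested directly in 1 fit of the 22 treated and vehicle libraries. It was called for 8 of the 10 genes, 7 lower and 1 higher in the set without the suffix, where 36.0% of the 17095 genes tested were called, 18.9% lower and 17.0% higher. The log2 difference was -3.32 ± 0.65 for Mrc1 (edgeR adjusted p = 0.000410), -2.02 ± 0.36 for Cd68 and -1.61 ± 0.33 for Csf1r. It was -1.72 ± 0.53 for Cd163, -1.65 ± 0.37 for Adgre1, -1.05 ± 0.30 for Trem2 and -0.79 ± 0.27 for C1qb. Arg1 differed the other way, by 2.36 ± 0.44 (edgeR adjusted p = 0.000274). C1qa, at -0.71 (edgeR adjusted p = 0.0912), and C1qc, at -0.72 (edgeR adjusted p = 0.0748), missed the threshold. With 1 fit over the 32 grouped libraries 5 of the 10 were called, and Cd163, C1qb and Trem2 were not (edgeR adjusted p = 0.0817, 0.1002 and 0.108). In that fit 3501 of the 18184 genes tested were called. The median over the 10 in the fit of 22 libraries was -1.33, against 0.01 over all genes tested. C1qb missed it too without VEH_7 replicate 2 or without VEH replicate 3 (edgeR adjusted p = 0.0856 and 0.0715), whereas C1qa and C1qc both passed it without MYT replicate 7 or without MYT replicate 8.

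Among the untreated tumours, 1 of the 10 genes differed between SPON and WT by the test, Mrc1, which was higher in SPON at a log2 fold change of 1.70 ± 0.39 (edgeR adjusted p = 0.0236, n = 5 and 5). Of the 15558 genes tested 8.38% were called, and 4.52% were called higher in SPON. Without WT replicate 1, 3, 4 or 5 the call was lost (edgeR adjusted p = 0.0630, 0.0619, 0.0700 and 0.0523), while over all 10 left-out libraries its log2 fold change stayed between 1.47 and 1.90. Without SPON replicates 1 and 5 together Mrc1 stood at 1.80 (edgeR adjusted p = 0.0245). C1qb came next, at 1.01 ± 0.30 (edgeR adjusted p = 0.0571), then C1qc at 0.91 ± 0.31 (edgeR adjusted p = 0.0870). Trem2, Cd68, Adgre1, C1qa and Csf1r had log2 fold changes of 0.66 to 1.14. Cd163 and Arg1 had log2 fold changes of -0.59 and -0.56, with standard errors of 0.65 and 0.67. The median over the 10 was 0.86, against 0.07 over all genes tested. Ranges of the groups were apart for 2 of the 10, Mrc1 and C1qb, and for 9.81% of all genes tested. For both genes SPON replicate 1 was the lowest SPON library, at 6.92 and 71.4 CPM, against WT highs of 6.79 and 67.8 CPM. Its TMM factor was 0.769, and these small gaps depend on that scaling.

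Setting each gene against Csf1r in the same library shows which genes kept pace with this lineage gene; these ratios are a description without a test. Adgre1 and Cd68 kept nearly the same log2 ratio in VEH and MYT, with medians of -2.51 and -2.70 for Adgre1 and -0.86 and -1.06 for Cd68. Cd163 had -4.38 in VEH and -4.48 in MYT. Mrc1 went from a median of 0.06 in VEH to -2.32 in MYT, with overlapping ranges, since VEH replicate 3 had a ratio of -1.74. The C1q chains went the other way, C1qa from 0.17 to 1.56, C1qb from -0.27 to 0.85 and C1qc from -0.34 to 0.75, and no MYT library overlapped VEH for any chain. Arg1 went from -1.26 to 1.73. Trem2 was -2.83 in VEH, -2.14 in MYT, -0.997 in SPON and -1.26 in WT. In the set titled _7 the medians of VEH_7 and M20_7 were -1.38 and -1.18 for Mrc1, 0.04 and 0.28 for C1qa, and -3.36 and -4.20 for Arg1.

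**Figure D3:**
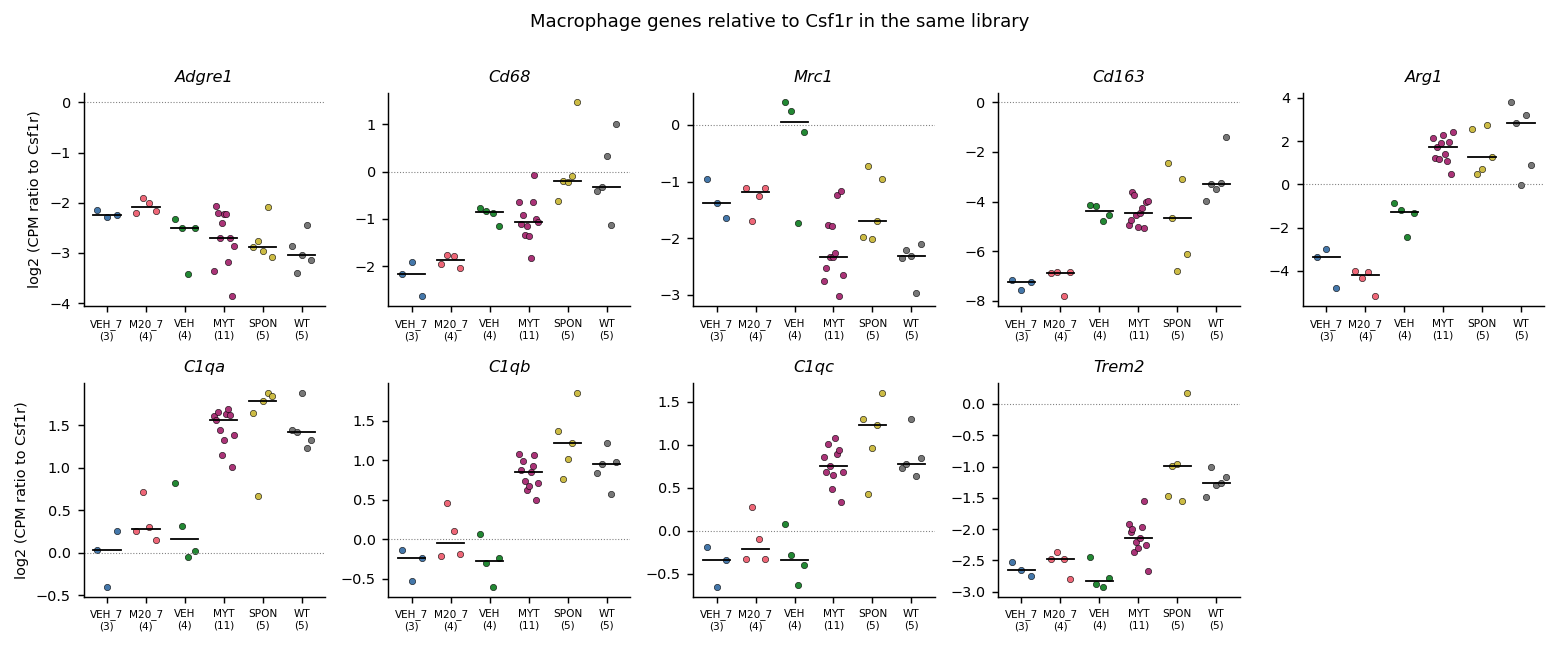
Log2 ratio of each gene's CPM to that of Csf1r in the same library (0.1 CPM added to both), with bars for group medians and a dotted line where the gene and Csf1r are equal. All 11 MYT libraries lie above the 4 VEH libraries for C1qa, C1qb, C1qc and Arg1, and MYT medians lie below VEH for Mrc1 (-2.32 against 0.06).

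Genes that work with the 10 were read from 12 lists of 98 genes. In MYT against VEH, 93 were tested, 55 were lower, 10 were higher and 28 were not called, with a median log2 fold change of -0.92. Of all genes tested 29.0% were lower and 30.5% higher. In the set titled _7, 95 were tested and none was called. Between SPON and WT 11 of 88 were higher and 2 lower, where 8.38% of all genes tested were called and 4.52% were higher. The difference between the sets was called lower for 46 of 97 and higher for 7, against 18.9% and 17.0% of all genes tested.

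Of the ligands and growth factors, Csf1, the main CSF1 receptor ligand, fell from 348 ± 45.3 CPM in VEH (SD, n = 4) to 149 ± 24.9 CPM in MYT (n = 11), a log2 fold change of -1.22 ± 0.13 (edgeR adjusted p = 4.72e-07). Il34, the other ligand, did not pass the test there, with 34.1 ± 5.93 and 35.7 ± 8.67 CPM and a log2 fold change of 0.07 ± 0.18. In the untreated tumours Il34 was higher in SPON, at 40.3 ± 34.59 against 3.16 ± 0.863 CPM in WT (edgeR adjusted p = 0.00448). Of 7 chemokines that draw monocytes, 5 were lower in MYT and none higher. Ccl2 fell from 100.1 ± 53.8 to 5.73 ± 4.11 CPM. Cx3cl1, the fractalkine gene, stood at 212 ± 151 and 90.3 ± 22.4 CPM. Its ranges overlapped, at 70.8 to 343.7 CPM in VEH and 51.3 to 123.8 CPM in MYT.

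All 8 macrophage transcription factor genes were called in MYT against VEH, 7 lower and 1 higher. Cebpb, which is also active in epithelium and neutrophils, rose by 1.11 ± 0.17 on the log2 scale. Of 10 further identity genes 7 were lower, 1 was higher and 2 were not called. Lyz2, for lysozyme, fell from 1826 ± 308 to 606 ± 229 CPM and Mpeg1, for the pore-forming perforin-2, from 343 ± 47.0 to 206 ± 35.6 CPM. Of 4 Fc receptor genes 3 were lower and none higher in MYT, and the same number, 3, were higher in SPON than in WT. Fcgr2b, the inhibitory IgG receptor gene, fell by 1.87 ± 0.24 on the log2 scale in MYT, and Fcer1g, the common signalling chain gene, by 0.85 ± 0.16.

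Among 13 TREM2 partners and lipid-associated genes, 7 were lower in MYT, 1 was higher and 5 were not called. The 2 most abundant did not pass the test: Apoe, for apolipoprotein E, stood at 2792 ± 470.0 CPM in VEH and 2049 ± 529 CPM in MYT, and Spp1, for osteopontin, at 2650 ± 792 and 2393 ± 1018 CPM. Of 8 complement partners of C1q, 6 were lower and none higher. C4b fell from 44.0 ± 15.7 to 9.30 ± 4.98 CPM, while C3 stood at 175 ± 111 and 186 ± 65.5 CPM and was not called. Of the 12 resident-type and alternatively activated genes tested, 8 were lower and none higher, with a median log2 fold change of -3.02. Stab1, a scavenger receptor gene, fell from 537 ± 131 to 82.6 ± 20.7 CPM, and Gas6, a bridge between dying cells and MERTK, did not pass the test at a log2 fold change of -0.22 ± 0.24.

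Inflammatory genes were mixed: of 6 tested in MYT against VEH, 3 were higher and 1 lower. Cxcl10, an interferon-induced chemokine gene, rose from 9.70 ± 1.72 to 30.0 ± 16.3 CPM, and Ptgs2, for cyclooxygenase 2, fell from 123 ± 53.0 to 5.96 ± 3.15 CPM. Of 7 arginine and polyamine enzymes, 2 were higher and 3 lower. Odc1, the ornithine decarboxylase gene that acts on the product of arginase, fell from 212 ± 100.4 to 70.5 ± 24.6 CPM, and Srm, the spermidine synthase gene, from 112 ± 12.5 to 70.8 ± 28.3 CPM, while Arg1 rose. Of 6 haem-handling genes 3 were called, 1 higher and 2 lower, where 59.5% of all genes tested were called. Hp, for haptoglobin, a protein that binds haemoglobin, rose from 15.5 ± 11.6 to 348 ± 180 CPM. Fth1, for ferritin heavy chain, stood at 4347 ± 1381 and 4671 ± 2060 CPM. Of 9 lysosomal genes 5 were lower and none higher, with Ctsb falling from 2225 ± 377 to 786 ± 118.5 CPM and Ctsd at 946 ± 231 and 986 ± 177 CPM.

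**Figure D4:**
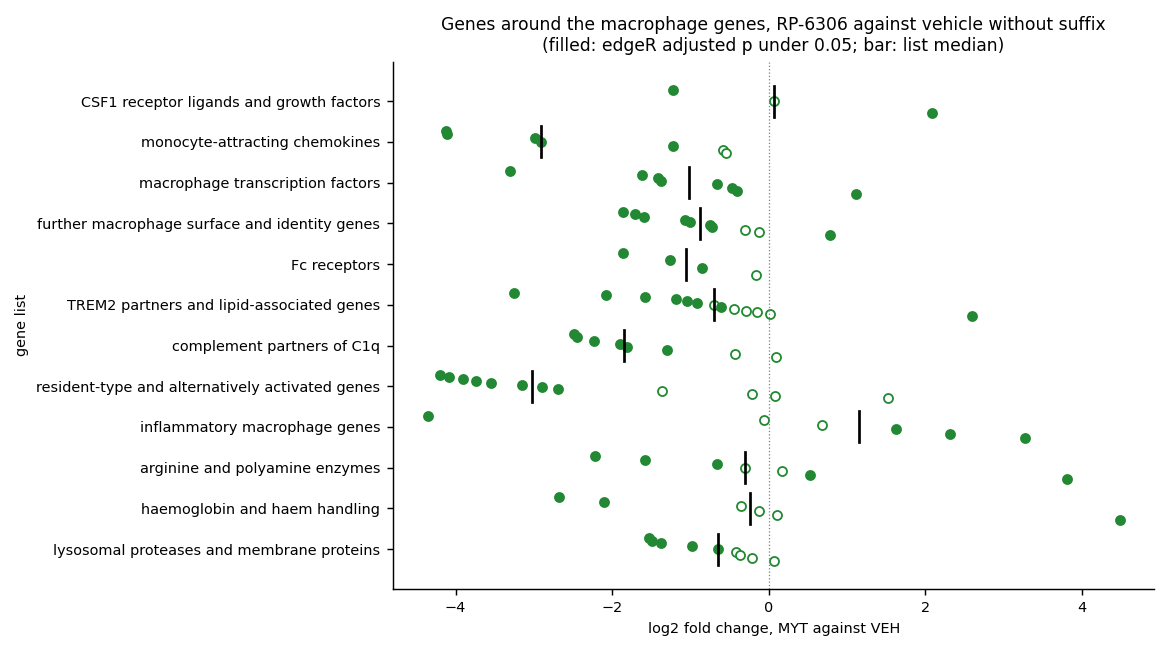
Log2 fold change of MYT against VEH (edgeR) for the tested genes of the 12 lists; each point is a gene, filled where the adjusted p is under 0.05, and each bar is a list's median. Resident-type and alternatively activated genes have the lowest median, -3.02, and inflammatory genes the highest, 1.16.

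Other cell types moved between the same groups. The summed level of 3 general leukocyte markers (Ptprc, Coro1a and Laptm5) was 428 to 538 CPM in VEH and 123.5 to 242 CPM in MYT, and all 3 were lower. Of 5 monocyte markers 2 were lower and none higher, where 29.0% of all genes tested were lower. All 6 fibroblast markers were lower, their sum going from 8370 to 12781 CPM in VEH to 593 to 3344 CPM in MYT, and so were all 5 endothelial markers (221 to 330.0 and 69.5 to 149 CPM). Of 6 epithelial markers 5 were higher, with sums of 601 to 1837 and 3254 to 8826 CPM. Of 7 dendritic cell markers tested 4 were lower and 1 was higher. The sums of that list overlapped, at 26.6 to 43.4 CPM in VEH and 27.8 to 66.3 CPM in MYT. Both of the 2 mast cell markers tested were lower, with sums of 3.43 to 57.9 and 0 to 1.96 CPM. None of the 5 T cell markers tested was called. The sum of 9 macrophage markers, 6 of which are among the 10 genes, was 1934 to 2950 CPM in VEH and 712 to 1487 CPM in MYT. No marker of these lists was absent from either group. The part of this makeup in the levels of the 10 genes was not tested. Between SPON and WT none of the 6 fibroblast, 5 endothelial or 6 epithelial markers was called.

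**Figure D5:**
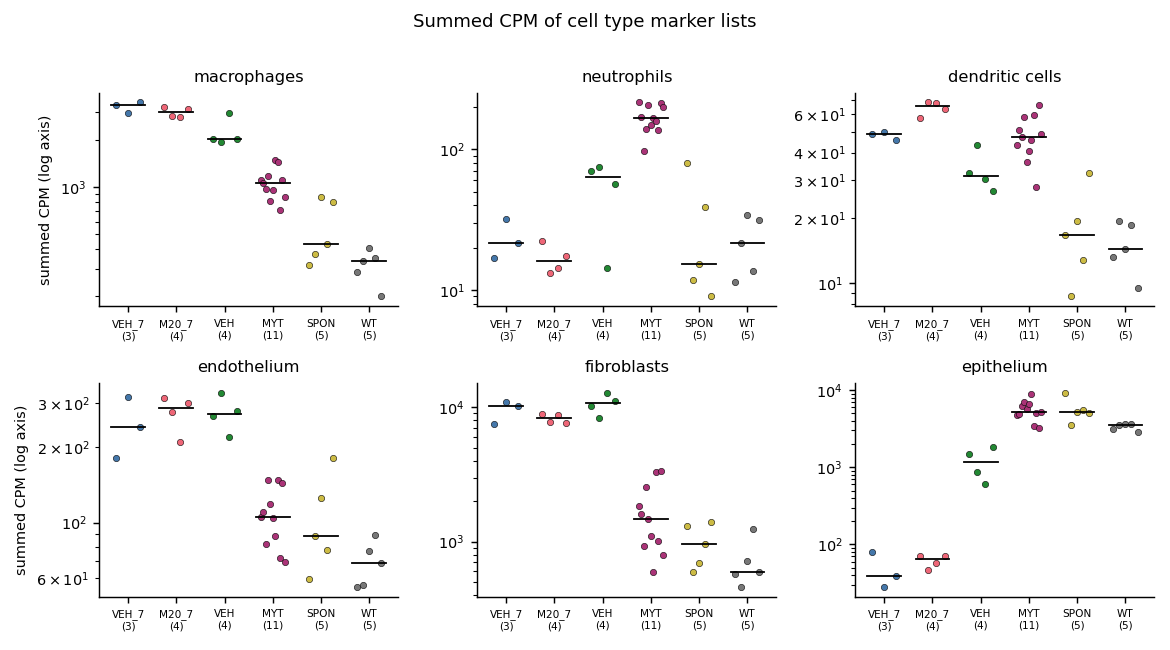
Summed CPM (log axis, its range set for each panel) of 6 marker lists in each of the 32 grouped libraries, with bars for group medians. MYT libraries lie below VEH for macrophages (712 to 1487 against 1934 to 2950 CPM), endothelium and fibroblasts, and above VEH for neutrophils and epithelium. For dendritic cells the 2 groups overlap, and of that list only Itgax has a higher median in MYT than in VEH.

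Genes whose deviations from their own group means most resembled those of a member were sought among 12406 genes over the 32 libraries, as a description without a test. C1qb was most like Tyrobp, the signalling partner gene of Trem2, with a Pearson r of 0.92, and C1qc was most like it too, at 0.88. C1qa was most like Ctss, the cathepsin S gene (0.88), and Trem2 like Pld4 (0.87). Mrc1 was most like Clec10a, another lectin receptor gene (0.85), then Fcgr2b (0.81). Csf1r was most like Il10ra (0.83), then its own ligand gene Csf1 (0.81). Cd68 was most like Slc37a2 (0.84) and Adgre1 like Laptm5 (0.79). Cd163 was most like Acvr1 (0.80) and Arg1 like Adra2c (0.74). Among the 10 themselves, Trem2 had the highest median r with the other 9, at 0.67. Arg1 and Cd163 had medians of 0.0018 and -0.11, and the highest r of Arg1 with any of the other 9 was 0.28.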

How the data were processed

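Per the submitters' processing notes, the authors used STAR 2.7.10a, HTSeq and edgeR with genome build GRCm38, and they deposited whole-number read counts per gene for 33 samples. The strand setting and the annotation release are not given in the sources used here. Of 54532 rows, 791 had no symbol and held 0.0482% of the counts. Totals ran from 13701115 to 34637096 counts a library. A second deposited table of CPM values was not used.

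Samples were grouped by title and treatment field, and replicate numbers follow accession order and carry no pairing. No label names separate mice, and a p-value therefore measures only the spread of these samples, which may be technical. None of the 90 pairs of libraries within groups was alike within counting noise: chi-square over degrees of freedom was at least 16.12, from genes of 10 or more counts.

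The 3 comparisons of groups and the difference between the treated sets were tested with the quasi-likelihood method of edgeR 4.0.16 under R 4.3.3, each on its own groups with the filterByExpr filter and TMM scaling, with Benjamini-Hochberg adjustment over all genes tested and a threshold of 0.05. These fits were also run on simulated counts in which few genes changed, unlike the set without the suffix, and no result here rests on that run. Standard errors were derived from the F statistic of each gene. Ratios to Csf1r used log2(CPM + 0.1), and likeness used log2(CPM + 0.5). Alternatives were DESeq2 size factors, no filter, DESeq2 1.42.0, limma 3.58.1 voom, 1 fit over 32 libraries and each library left out. Leaving out SPON replicates 1 and 5 together, or MYT libraries by title number, was decided with the data in view.

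The 10 genes and all lists were chosen with earlier results of these data known. Named besides the 10 were the 2 genes of each list with the highest mean CPM, and the genes most like each of the 10 among up to 3 by Pearson r with a mean of at least 2 CPM; 1 gene so named is not reported here. Gene positions came from GENCODE M21 and promoter windows from RefSeq on GRCm38.p6.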

Additional observations from a re-analysis of the deposited data

Results flagged for a closer look

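In VEH, 2 single libraries lay far from the other 3. Adgre1 stood at 67.05 CPM in VEH replicate 4, where the nearest other library held 59.67 CPM, a small gap that stands out because the other 3 were so close. Cd68 stood at 345.1 CPM in VEH replicate 3, where the nearest other library held 188.6 CPM. These were 2 of 40 sets of a gene and a group that were tested, and chance alone marks about 1 in 20.

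The change of 8 genes between RP-6306 and vehicle differed between the set without the suffix and the set titled _7, by the interaction test in edgeR (adjusted p at most 0.0281). With 1 fit over the 32 libraries 3 of the 8, Cd163, C1qb and Trem2, were not called (edgeR adjusted p = 0.0817, 0.1002 and 0.108). In that fit 3501 of the 18184 genes tested were called. The log2 difference was -3.32 for Mrc1, -2.02 for Cd68, -1.72 for Cd163, -1.65 for Adgre1, -1.61 for Csf1r, -1.05 for Trem2 and -0.79 for C1qb. For Arg1 it was 2.36, since Arg1 was higher with RP-6306 in all 11 MYT libraries than in all 4 VEH libraries and, in the other set, had its lowest 2 libraries in M20_7.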

How the results depend on the processing

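In the set without the suffix, all 10 genes were called in the same direction under each of the 5 other settings, without any 1 of 15 libraries (8480 to 9669 genes called) and without either run of 5 MYT title numbers. In the set titled _7 none of the 10 was called under any setting, while genes called rose from 0 to 6 without the filter and to 55 with DESeq2. There the sign of small values turned: C1qa was 0.0066 with limma voom, and without 1 library C1qa ran from -0.19 to 0.16, C1qb from -0.16 to 0.023, Cd68 from -0.21 to 0.11 and Cd163 from -0.25 to 0.13. Between SPON and WT, 1303 genes and 1 of the 10 were called. These became 2648 and 3 with DESeq2, 5472 and 8 with 1 fit over the 32 libraries, and 506 to 1887 and 0 to 3 without 1 library, and Arg1 was 0.049 with limma voom. The difference between the sets gave 6151 genes and 8 of the 10, which became 3501 and 5 with 1 fit over the 32 libraries (Cd163, C1qb and Trem2 lost) and 5047 to 6345 and 7 to 10 without 1 library. The causes of these changes were not tested. The order of the 6 group medians held for 9 of the 10 genes with DESeq2 size factors and for 8 without TMM factors, and group means moved by less than 1 SD. Of the 10 genes Cd163 had the lowest depth, with as few as 7 counts in a library. No paired analysis was possible because the labels carry no replicate numbers.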

Other observations

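Of the 88 tested genes that work with the 10, 11 were higher in SPON than in WT, among them 3 of the 4 Fc receptor genes, and 2 were lower. Of all genes tested 8.38% were called and 4.52% were higher. Lyz2, for lysozyme, stood at 228 ± 111 CPM in SPON (SD, n = 5) and 82.4 ± 20.3 CPM in WT (edgeR adjusted p = 0.0253). Fcgr2b stood at 34.4 ± 9.65 and 11.4 ± 2.92 CPM (edgeR adjusted p = 0.00779), and Stab1 at 57.6 ± 6.93 and 29.4 ± 10.04 CPM (edgeR adjusted p = 0.0376). Cxcl10 was low in both, at 7.54 ± 5.33 and 1.40 ± 0.422 CPM (edgeR adjusted p = 0.0369). Of the polyamine genes, Odc1 stood at 91.6 ± 59.4 and 23.4 ± 15.3 CPM and Srm at 110.0 ± 10.7 and 62.9 ± 8.29 CPM, both called higher in SPON. Without SPON replicates 1 and 5, whose mt-Co1 share was high, the SPON means were 232 CPM for Lyz2 and 33.4 CPM for Fcgr2b. They were 56.2 CPM for Stab1, 8.97 CPM for Cxcl10, 118 CPM for Odc1 and 107 CPM for Srm. In SPON replicate 5 Ctsd, the gene of the lysosomal protease cathepsin D, held 41509 CPM, while the other 4 SPON libraries held 449 to 1089 CPM.

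The sample titled as vehicle whose treatment field gives RP-6306 was left without a group. With TMM factors over 33 libraries it held 360 CPM of Csf1r, 209 CPM of Cd68, 20.2 CPM of Cd163 and 399 CPM of C1qa, within the ranges of the 4 VEH libraries. Of these, C1qa also lay within the MYT range of 187 to 443 CPM. It held 142 CPM of Mrc1, below the VEH range of 191 to 397 CPM and above the MYT range of 7.46 to 63.5 CPM. Adgre1, at 30.7 CPM, also lay between both ranges. C1qb, C1qc and Trem2, at 236, 273 and 32.2 CPM, lay below VEH and within MYT. Arg1, at 27.1 CPM, lay below every library of either group.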
